A study of Mus musculus with 7 samples.

Results

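The cells described here are the Ly6c2+ infiltrating monocytes of the infarcted mouse heart, 132 of the 4763 barcodes kept in the 5 CD45+ leukocyte libraries (2.77%) and of 22630 barcodes in the whole series. A barcode, taken as 1 cell, was kept with at least 200 genes and at most 10% of its UMIs (unique molecular identifiers, 1 per captured transcript) from mitochondrial genes. It was a member with at least 2 UMIs of Ly6c2, at least 1 of Plac8 and at least 1 of Ccr2. It also had to have at most 2 UMIs of C1qa, C1qb and C1qc together, none of Csf3r, none of Cd3d, Cd3e and Cd3g, and fewer than 3 of Cd79a. These UMI counts chose the members, so the levels of the rule's own genes are not results.

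The study followed leukocytes of the heart by single-cell RNA sequencing (10x 3' chemistry) in male C57BL6/J mice, without infarction and at days 1, 3, 5 and 7 after myocardial infarction by permanent ligation of a coronary artery. Each CD45+ library pooled hearts, 5 each for steady state and for days 1, 3 and 5, and 3 for day 7, and each time point had 1 such library. The steady-state library also carries the infarction tag in its labels and was placed by its time point. Circulating cells had been marked with an intravenous anti-CD45.2 antibody, viable cells negative for it were sorted from the infarct, border zone and adjacent myocardium, and neutrophils had been reduced before the sort. A second experiment on other mice, called the CD11b+ pool below, sorted CD11b+ cells of days 1, 3 and 5 (5, 5 and 3 mice), tagged each day with its own hashtag antibody and stained them with 10 barcoded surface antibodies. The same rule found 59 members among 4835 kept barcodes there, of which 9, 35 and 10 carried the single hashtag of day 1, 3 or 5, and 5 carried no single hashtag. All groups received the intravenous antibody, and their ages are not given in the sources used here.

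Monocytes with high Ly6C on their surface are made in bone marrow and spleen, leave the blood through the chemokine receptor CCR2, and enter the infarct within the first days after coronary occlusion. There they produce cytokines, proteases and reactive species and engulf dead tissue. Many then lose Ly6C and take on genes of macrophages, among them the complement C1q subunits, or of antigen-presenting cells.

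The members carried the markers of classical monocytes at all 3 days that had members, and markers of lymphocytes were at or near 0. The 12 markers of the classical monocyte list outside the rule (such as Chil3, Vcan, F13a1, Hp and Cd14) were all detected. Together these 12 came to 21512, 16610.4 and 15846 counts per 1000000 UMIs (CPM) at days 1, 3 and 5. In the other mononuclear phagocytes the same 12 came to 17514, 11047 and 6376 CPM. Those phagocytes are the 1933 kept barcodes with at least 2 UMIs of Csf1r and Cd68 together and without neutrophil or lymphocyte genes. T cell markers outside the rule held 0, 1 and 0 UMIs, NK cell markers 2, 5 and 1, and B or plasma cell markers 8, 19 and 0. Siglech and Ccr9 of plasmacytoid dendritic cells and Ly6g of neutrophils were at 0 in all members. Neutrophil markers as a list were not near 0: they held 22174, 3484 and 448 CPM in the members, 16111, 1365 and 411 CPM in the other phagocytes, and 486, 288 and 183 CPM in the members of the CD11b+ pool. At day 1 most of that level came from S100a8 and S100a9 (16874 and 3399 CPM), and its part in the day 1 profile of the CD45+ members was not tested. Markers of endothelial or stromal cells came to 38.5, 32.0 and 399 CPM, the last from 40 UMIs of Fabp4 at day 5, and those of conventional dendritic cells to 21.4, 82.5 and 48.7 CPM. Macrophage markers outside the rule, so without C1q, came to 923, 5541 and 10752 CPM in the CD45+ libraries, below the 2022, 10036 and 30645 CPM of the other phagocytes. In the CD11b+ pool they came to 5027, 4737 and 7324 CPM in members and 3689, 8398 and 16399 CPM in other phagocytes. The 12 classical markers came there to 14069, 14453 and 15323 CPM against 14701, 6996 and 5384 CPM. At day 1 of the pool the members were thus higher in macrophage markers and not higher in classical ones.

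The members were counted at days 1, 3 and 5, and no barcode met the rule at the other time points. Steady state had 0 members among 459 mononuclear phagocytes, which allows a share of up to 0.654% (3 counts of the total; the exact 95% interval ends at 0.800%), and day 7 had 0 of 349, which allows up to 0.860% (exact interval to 1.05%). Day 1 had 42 of 170, or 24.7% (exact Clopper-Pearson 95% interval 18.4 to 31.9%). Day 3 had 75 of 481, or 15.6% (12.5 to 19.1%), and day 5 had 15 of 606, or 2.48% (1.39 to 4.05%). The intervals of days 1 and 3 overlap slightly, and that of day 5 lies below both. These intervals and floors cover counting error only: with 1 library a time point the difference between days has no replicate in this experiment and was not tested. In the CD11b+ pool the shares were 6.08, 6.74 and 1.60% of phagocytes, so day 5 was again the lowest, while day 1 did not exceed day 3 under this limit.

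**Figure D1:**
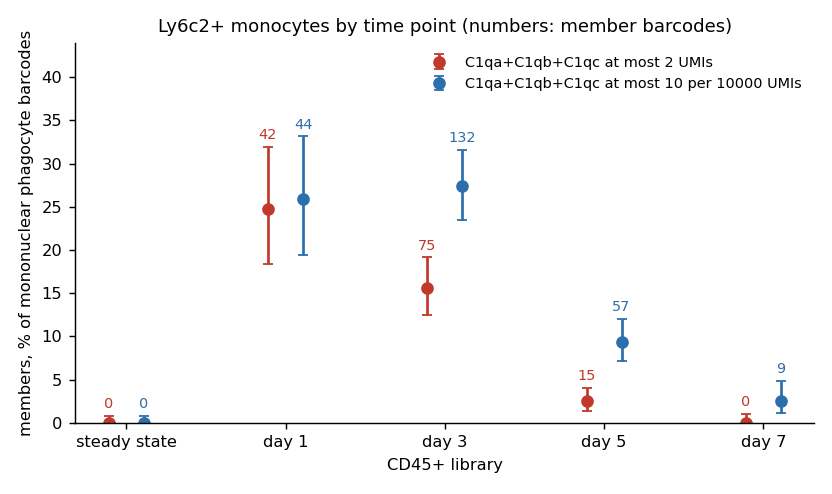
Share of mononuclear phagocyte barcodes that were members (y axis, %) in each CD45+ library (x axis), with exact 95% binomial intervals and the number of member barcodes beside each point. Red points use the limit of 2 C1q UMIs and fall from 24.7% at day 1 to 2.48% at day 5, with 0 members at steady state and day 7; blue points use a limit of 10 C1q UMIs per 10000.

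The counts at later days depended on the limit on C1q. Before that limit, 46, 177, 89 and 32 barcodes met every other condition at days 1, 3, 5 and 7, and the limit left 42, 75, 15 and 0. The median of the 3 C1q genes together in these candidates was 0, 3, 5 and 13.5 UMIs, and at day 7 the lowest was 3. Over 20 UMIs were found in 0, 37, 27 and 10 of them. A few C1q UMIs were also found in cells that should not make them: 5.26, 14.3, 39.5 and 75.4% of T and B lymphocyte barcodes exceeded 2 UMIs at days 1, 3, 5 and 7, at median depths of 3345, 3101, 2920 and 2912.5 UMIs against 10297, 9696 and 6982 in the members. A limit of 10 C1q UMIs per 10000, added after these values were seen, gave 44, 132, 57 and 9 members, or 25.9, 27.4, 9.39 and 2.58% of phagocytes. Day 3 was then no lower than day 1, day 5 was below both, and day 7 was above 0. In the CD11b+ pool this limit gave 33 of 148, 84 of 519 and 18 of 624, or 22.3, 16.2 and 2.88% at days 1, 3 and 5, so day 1 was there above day 3 and over 3 times its share under the limit of 2 UMIs. With each barcode thinned to 2000 UMIs the shares at days 1, 3, 5 and 7 were 8.33% (5 of 60), 10.7% (45 of 422), 5.94% (35 of 589) and 0.802% (3 of 374). In the pool they were 7.22% (7 of 97), 4.96% (34 of 685) and 1.17% (11 of 937). Day 5 had the lowest share of days 1, 3 and 5 in both experiments under each of these 3 settings, while the order of days 1 and 3 changed with the setting in both.

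**Figure D2:**
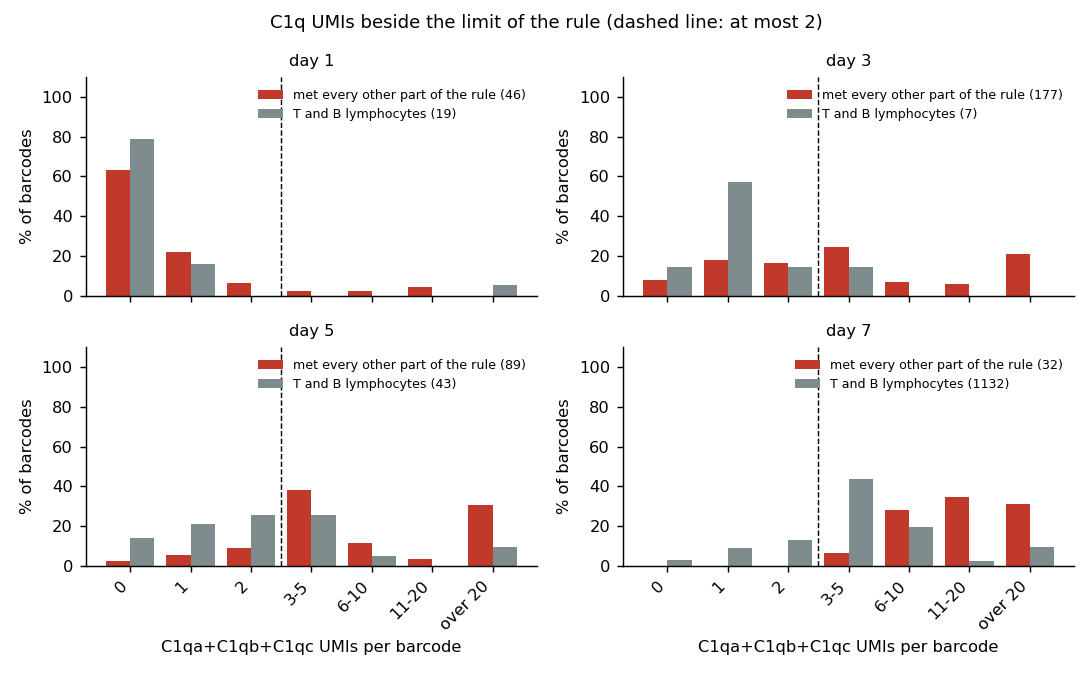
Distribution of C1q UMIs per barcode (x axis, bins) as a share of barcodes (y axis, %) at days 1, 3, 5 and 7. Red bars are the 46, 177, 89 and 32 barcodes that met every other condition, grey bars are T and B lymphocytes, and the dashed line is the limit of 2 UMIs; at day 7 no red bar lies left of it.

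Members lay close to the limits in part. Ly6c2 stood at exactly 2 UMIs in 9, 8 and 3 members of days 1, 3 and 5, and 6, 22 and 8 barcodes failed only by having 1 Ly6c2 UMI. C1q stood at exactly 2 UMIs in 3, 29 and 8 members and at exactly 3 in 1, 18 and 12 barcodes that met all else. Ly6c2 and its neighbour Ly6c1 are near-identical copies, and how reads were split between them is uncertain. Doublets were in effect not removed, since Scrublet marked only 18 of the 4763 barcodes, 1 of them a member. No member barcode was shared between libraries.

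For the profile, UMIs of the members were summed per day and experiment. The sums held 464197, 747826 and 102261 UMIs at days 1, 3 and 5 in the CD45+ libraries and 178831, 650241 and 180514 in the CD11b+ pool. A sum had to hold at least 10 cells, which left out the 9 cells of day 1 of the pool. The 5-sum fit (edgeR quasi-likelihood, with day and experiment as terms, Benjamini-Hochberg adjusted p under 0.05) therefore rested at day 1 on 1 sum of the CD45+ library and had 1 residual degree of freedom. It called 278 genes higher and 278 lower at day 3 than at day 1 (4.77% and 4.77% of 5824 tested), 245 higher and 267 lower at day 5 than at day 1 (4.21% and 4.58%), and 35 higher and 22 lower at day 5 than at day 3 (0.601% and 0.378%). Scaling by total counts alone moved the median log2 change over all genes from -0.02 and -0.07 to 0.15 and 0.14 at days 3 and 5 and turned the splits into 382 higher and 201 lower at day 3, and 356 and 170 at day 5.

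A 6-sum fit with the 9 cells added, chosen after the cell counts were seen, called 15 higher and 18 lower at day 3 (0.362% and 0.434% of 4149), 23 and 15 at day 5 (0.554% and 0.362%), and none between days 5 and 3 (0.0% each way). All 33 and 38 of its calls were also calls of the 5-sum fit. With members chosen by the C1q limit per 10000 UMIs, 15 genes were higher and 39 lower at day 3 (0.25% and 0.65% of 5997), 36 and 40 at day 5 (0.6% and 0.667%), and 1 and 4 at day 5 against day 3 (0.0167% and 0.0667%). Of the 33 and 38 genes, 15 and 21 were among them. Without the experiment term the 5 sums gave 11, 11 and 0 calls. Below, a gene "rose" or "fell" only where both the 5-sum and the 6-sum fit called it. For a gene called by the 5-sum fit alone the values are given. Counts of alternatives passed, given for some genes, include settings that repeat the 5-sum fit. Leaving out Siglech or Ccr9 barcodes removed no member, and leaving the pool day 1 sum out of the 6 sums restored the 5 sums. Passing under these settings was fixed in advance. Each count of list genes called by the 5-sum fit stands against its shares over all genes. These were 4.77% each way at day 3, and 4.21% higher and 4.58% lower at day 5. The mice of a day were pooled, so p-values rest on the spread between sums, and the CD45+ and pool sums of a day come from separate mice. In the 5-sum fit that spread comes from days 3 and 5 only. Its p-values against day 1 therefore measure no spread at day 1. The spread fitted in common over genes (biological coefficient of variation) was 15.2% with 5 sums and 23.2% with 6. The 5-sum fit gave full weight to spread shared over genes (infinite prior degrees of freedom, against 8.73 with 6 sums). No gene had a spread of its own in it, so its very small p-values and SEs carry none.

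Nitric oxide synthase and arginase marked the members of day 1 in both experiments. Nos2, the inducible nitric oxide synthase (chr11:78920787-78960254, plus strand; GRCm38 throughout), stood at 58.2, 0 and 0 CPM at days 1, 3 and 5 in the CD45+ libraries and at 106, 0 and 0 in the pool. These were 27 and 19 UMIs at day 1 and no UMI at day 3 or 5 in either experiment. Against a floor of 3 counts per sum, day 1 was at least 14.5-fold and 23.0-fold higher than day 3, and Nos2 fell at day 3 (adjusted p = 0.00141 with 5 sums and 0.0162 with 6). At day 5 the 5-sum fit did not call it (adjusted p = 0.182). Arg1, the arginase that competes with nitric oxide synthase for arginine (chr10:24915221-24927484, minus strand), stood at 2988, 477 and 225 CPM in the CD45+ libraries and at 4300.1, 299.9 and 1086 CPM in the pool. The day 1 sums were the highest of both experiments. Arg1 fell at day 3 by a log2 change of -3.28 ± 0.23 (SE, adjusted p = 5.4e-41) with 5 sums and -3.18 ± 0.54 (SE, adjusted p = 0.0273) with 6, and passed the threshold in 10 of 13 alternatives, with adjusted p from 9.9e-44 to 0.346. At day 5 only the 5-sum fit called it (adjusted p = 6.0e-19 and 0.0537), and the pool sum at day 5 was higher than that at day 3. T and B lymphocytes of day 1, in which Arg1 UMIs stand for free RNA, held 132 CPM.

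Metallothioneins, which bind zinc and copper, were also highest at day 1. Mt2 stood at 517, 14.7 and 0 CPM in the CD45+ libraries and at 179, 4.61 and 5.54 CPM in the pool, and fell at day 3 (-5.20 ± 0.43 (SE, adjusted p = 5.6e-04) with 6 sums) and at day 5 (-6.36 ± 0.68 (SE, adjusted p = 0.00381)). Its day 1 level in the CD45+ members was that of the lymphocytes of the same library, 514 CPM. How much of that level was free RNA was not tested. Mt1 stood at 3337, 690.0 and 352 CPM and in the pool at 878, 463 and 316 CPM, and fell at day 5 (-3.31 (adjusted p = 1.5e-31) with 5 sums, -2.48 (adjusted p = 0.0279) with 6). Of the 15 genes of arginine and stress metabolism tested, the 5-sum fit called 2 higher and 7 lower at day 3, and both fits called Arg1 and Mt2. Hmox1, the haem-degrading oxygenase, was at 1698, 1919 and 714 and 867, 1687 and 992 CPM and was called in neither fit at day 3. The 5-sum fit called it lower at day 5 than at day 1 (-1.25 (adjusted p = 5.0e-05)) and than at day 3 (-1.11 (adjusted p = 5.2e-06)), and the 6-sum fit did not (adjusted p = 0.518 and 0.998).

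Inflammatory mediators were lower after day 1, though few of them in both fits. Of 18 cytokine and chemokine genes tested, the 5-sum fit called 13 lower and none higher at day 3, with a median log2 change of -1.12 against -0.02 over all genes. At day 5 it called 12 lower and none higher, with a median of -1.52 against -0.07. Both fits called Ccl3 at day 3 and Ccl3, Ccl4 and Cxcl3 at day 5. With members chosen by C1q per 10000 UMIs, Ccl2, Ccl3, Ccl4, Cxcl3 and Il6 were called lower at day 3 (27.8%, against 0.65% of all genes). At day 5 these and Ccl7 and Tnf were (38.9%, against 0.667%). Cxcl3, a neutrophil-attracting chemokine (chr5:90786103-90789600, plus strand), stood at 6155, 429 and 29.3 CPM in the CD45+ members and 3383, 1403 and 521 CPM in the pool. At day 1 a Cxcl3 UMI was found in 17 of 19 lymphocytes, and after thinning in 66.7% of lymphocytes and 88.1% of members. How much of its day 1 level was free RNA was not tested. Cxcl3 was lower at each later day in both experiments. It fell at day 5 by -6.12 ± 0.30 (SE, adjusted p = 5.2e-88) with 5 sums and -4.70 ± 0.86 (SE, adjusted p = 0.0283) with 6, passing in 12 of 13 alternatives, with adjusted p from 2.9e-104 to 0.132. Ccl3, a chemokine that attracts monocytes, stood at 2256, 549.6 and 449.8 CPM and in the pool at 755, 186 and 222 CPM, and fell at day 3 (-2.09 (adjusted p = 0.0149) with 6 sums) and day 5 (-2.11 (adjusted p = 0.00976)). The lymphocytes of day 1 held more Ccl3 (3612 CPM) and more Ccl4 (4999 against 2378 CPM) than the members. After thinning, a Ccl3 UMI was found at day 1 in 69.0% of members and 55.6% of lymphocytes. A Ccl4 UMI was found in 83.3% of thinned members and 50% of thinned lymphocytes. The part of free RNA in the day 1 levels of Ccl3 and Ccl4 was not tested.

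The most abundant mediators changed less. Il1b, the cytokine released by the inflammasome, stood at 8027, 5889 and 6190.0 CPM in the CD45+ libraries and 5933, 5683 and 7484 CPM in the pool, against 1531 CPM in lymphocytes of day 1. Its day 5 level exceeded its day 1 level in the pool and not in the CD45+ libraries, and the 6-sum changes were -0.32 and -0.08 (adjusted p = 0.721 and 0.942). Ccl2, the ligand of CCR2, stood at 5116, 2493 and 1046 and 3126, 1921 and 1518 CPM, lower at each later day in both experiments. The 5-sum fit called Ccl2 at days 3 and 5 (-1.41 (adjusted p = 7.2e-08) and -2.22 (adjusted p = 1.8e-16)), and the 6-sum fit did not (adjusted p = 0.24 and 0.0579). With members chosen by C1q per 10000 UMIs, Ccl2 was called lower at both days. Cxcl2 stood at 15013, 9524 and 4616 and 9747, 5621 and 8382 CPM, with 16302 CPM in lymphocytes of day 1. Ptgs2, the prostaglandin synthase COX-2, stood at 571, 384 and 724 and 1633, 869 and 692 CPM, and Osm, the cytokine oncostatin M, at 715, 507 and 763 and 201, 343 and 222 CPM; neither fit called either gene.

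Several further genes of day 1, named after their values were seen, fell in both fits. Inhba, the activin A subunit, stood at 226, 64.2 and 39.1 CPM in the CD45+ libraries and 755, 47.7 and 11.1 CPM in the pool, with no UMI in lymphocytes. It fell at day 3 by -1.92 (5 sums) and -2.96 (6 sums) on the log2 scale and at day 5 by -3.27 and -4.41, with 6-sum adjusted p of 0.0247 and 0.0118. Fpr1, a receptor for formylated peptides of bacteria and mitochondria, stood at 211, 38.8 and 9.78 and 44.7, 6.15 and 0 CPM and fell at both days (6-sum adjusted p = 0.0191 and 0.0118). Hilpda, a hypoxia-induced lipid droplet protein, stood at 1051, 235 and 176 and 1319.7, 271 and 283 CPM and fell at both days (6-sum changes -2.27 (adjusted p = 0.0098) and -2.42 (adjusted p = 0.00493)). For Inhba, Fpr1 and Hilpda the day 1 sum was the highest of its experiment in both experiments. Il1r2, the decoy receptor of interleukin 1, stood at 1109, 222 and 205 and 291, 78.4 and 16.6 CPM and fell at day 3 (-2.16 (adjusted p = 0.0247) with 6 sums) and day 5 (-2.97 (adjusted p = 0.00975)). Neutrophils of the day 1 library held 2657 CPM of it and lymphocytes 12.0. Ppbp, a chemokine of platelet granules, stood at 639.8, 6.69 and 0 CPM and in the pool at 134, 3.08 and 227 CPM. It fell at day 3 (-6.25 (adjusted p = 0.032) with 6 sums), its day 5 sum in the pool exceeded that of day 1, and at day 1 its UMIs lay in 10 of 42 members.

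Genes of granules and alarmins were very high in the CD45+ members of day 1 and low in those of the pool. S100a8 stood at 16874, 2716 and 205 CPM in the CD45+ libraries and at 106, 125 and 127 CPM in the pool, where the days differed little. Neutrophils of the day 1 library held 90292 CPM of S100a8 and lymphocytes 3947 CPM. Lcn2, an iron-siderophore binding protein of granules, stood at 3397, 163 and 19.6 and 5.59, 49.2 and 33.2 CPM, highest at day 1 in the CD45+ libraries and lowest at day 1 in the pool. Saa3, an acute-phase serum amyloid A protein, stood at 33255, 2443 and 459.6 and 867, 92.3 and 576 CPM, highest at day 1 in both. Of 17 tested genes of this list, the 5-sum fit called 10 lower at day 3 and 11 at day 5, and 1 higher at each, with median changes of -1.30 and -1.84. Both fits called Slpi and Lyz2. Slpi, a secreted inhibitor of leukocyte proteases, stood at 3841, 1084 and 587 CPM and in the pool at 1532, 499.8 and 349 CPM, and fell at day 3 (-1.78 ± 0.29 (SE, adjusted p = 0.0247) with 6 sums) and day 5 (-2.49 ± 0.31 (SE, adjusted p = 0.00493)), the latter in 12 of 13 alternatives, with adjusted p from 7.7e-26 to 0.0832.

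Lyz2, the lysozyme of macrophages and granulocytes (chr10:117277331-117282321, minus strand), moved the other way within the same list. It stood at 5063, 20780.2 and 22267 CPM in the CD45+ libraries and at 4809, 14192 and 18375 CPM in the pool. In both experiments the day 1 sum was the lowest, with no overlap with days 3 and 5. Lyz2 rose at day 3 by 1.78 ± 0.23 (SE, adjusted p = 3.1e-12) with 5 sums and 1.76 ± 0.29 (SE, adjusted p = 0.0247) with 6, and at day 5 by 1.98 ± 0.24 (SE, adjusted p = 1.9e-14) and 1.98 ± 0.29 (SE, adjusted p = 0.00976). With members chosen by C1q per 10000 UMIs the changes were 1.26 and 1.44 and did not pass (adjusted p = 0.0982 and 0.0562). The median member held 34.2, 193 and 239.7 Lyz2 UMIs per 10000 at days 1, 3 and 5, and lymphocytes of day 5 held 4481 CPM.

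**Figure D3:**
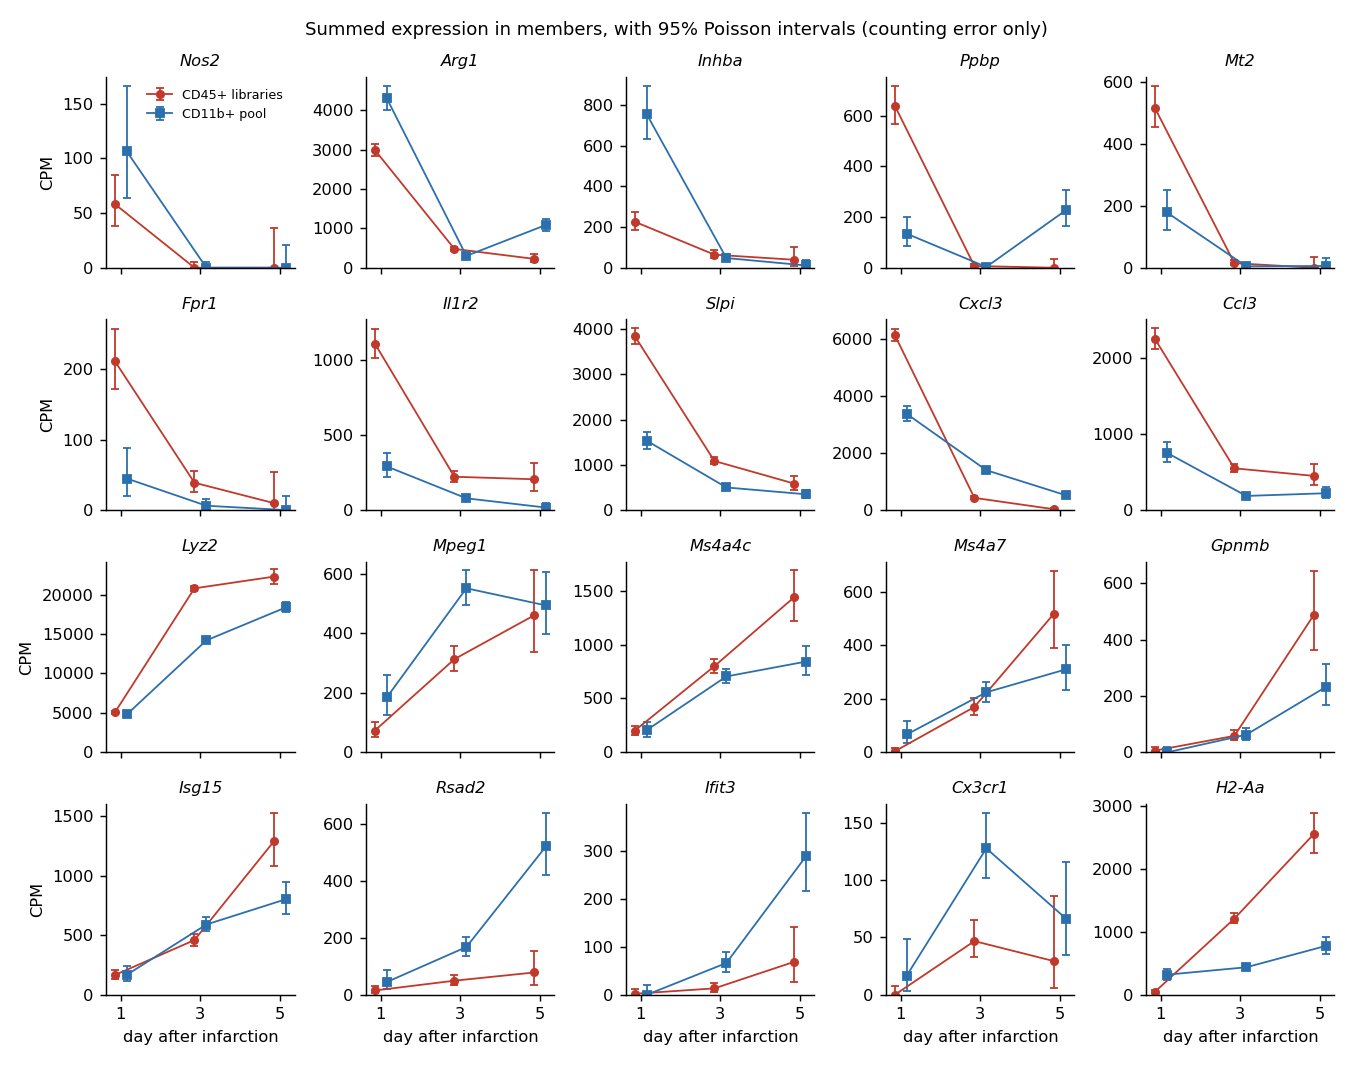
CPM (y axis) of 20 genes in the summed members of days 1, 3 and 5 (x axis), with red circles for the CD45+ libraries, blue squares for the CD11b+ pool and exact 95% Poisson intervals that cover counting error only. Nos2, Arg1, Inhba and Cxcl3 are highest at day 1 in both experiments, Lyz2, Isg15, Ms4a4c and Gpnmb lowest at day 1 in both, and H2-Aa differs between the experiments at day 1.

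Interferon-stimulated genes were higher at day 5. Type I interferon, sensed through its receptor, activates a complex of transcription factors that binds the interferon-stimulated response element and switches on antiviral genes. Of 27 such genes, 25 were in the annotation and 23 were tested. The 5-sum fit called 11 higher and none lower at day 3 (median log2 change 1.74) and 17 higher and none lower at day 5 (median 2.50). The 6-sum medians were 1.03 and 1.95. Both fits called Isg15 at day 3, and Gbp2, Ifi47, Ifit3, Isg15, Rsad2 and Zbp1 among others at day 5.

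The promoters of this list were searched for the response element, written GAAANNGAAA on either strand, in the 250 bases before the start of transcription, because 7 of these genes rose at day 5. The sequences are RefSeq's for GRCm38.p6, and 19 genes of the list matched by symbol. The letters were found in 11 of the 19, against 978 of 32851 promoters of this length (2.98%). They are shown for 4 genes that rose at day 5, 5' to 3' on the gene's own strand with the match in capitals; in Isg15 3 matches overlap, the nearest starting 66 bases before the start, and in Ifit3 there are 2. A match is a description of letters, and nothing here measured binding.
Isg15, chr4:156200819-156200918, minus strand: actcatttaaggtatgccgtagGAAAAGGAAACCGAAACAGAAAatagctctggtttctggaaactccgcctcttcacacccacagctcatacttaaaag
Gbp2, chr3:142620563-142620662, plus strand: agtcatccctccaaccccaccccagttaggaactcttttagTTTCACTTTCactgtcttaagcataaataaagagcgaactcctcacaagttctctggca
Ifit3, chr19:34583279-34583528, plus strand: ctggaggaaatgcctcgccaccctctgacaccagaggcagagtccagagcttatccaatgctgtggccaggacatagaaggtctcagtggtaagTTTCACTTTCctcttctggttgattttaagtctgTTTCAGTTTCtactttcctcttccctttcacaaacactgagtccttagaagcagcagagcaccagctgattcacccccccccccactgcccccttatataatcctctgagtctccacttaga
Rsad2, chr12:26456453-26456702, minus strand: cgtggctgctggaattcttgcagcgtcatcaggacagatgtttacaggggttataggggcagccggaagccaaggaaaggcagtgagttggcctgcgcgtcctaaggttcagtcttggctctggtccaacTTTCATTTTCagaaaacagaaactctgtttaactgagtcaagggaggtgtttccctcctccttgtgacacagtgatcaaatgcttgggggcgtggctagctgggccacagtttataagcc
The nearest match began 59 bases before the start in Gbp2, 122 in Ifit3 and 120 in Rsad2. Of the promoters matched, those of Ifi47, Irf7 and Ifitm3 held no such letters in this window.

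Isg15, a ubiquitin-like protein (chr4:156199424-156200818, minus strand), stood at 166, 460.0 and 1291 CPM in the CD45+ members and at 168, 591 and 803 CPM in the pool. Each later day was higher in both experiments. Isg15 rose at day 3 by 1.53 ± 0.29 (SE, adjusted p = 5.5e-06) with 5 sums and 1.61 ± 0.32 (SE, adjusted p = 0.0498) with 6, and at day 5 by 2.45 ± 0.29 (SE, adjusted p = 1.8e-14) and 2.56 ± 0.33 (SE, adjusted p = 0.0051), passing in 11 of 13 alternatives, with adjusted p from 6.6e-19 to 0.171. Lymphocytes of day 5 held 77.9 CPM and the other phagocytes 235 CPM. The 7 lymphocytes of day 3 held 924 CPM, above the CD45+ members of that day. Whether the Isg15 UMIs of so few lymphocytes were free RNA was not tested. Ifit3, an antiviral protein, stood at 2.15, 13.4 and 68.5 CPM and in the pool at 0, 66.1 and 288 CPM. These were 1, 10 and 7 and 0, 43 and 52 UMIs, so the CD45+ values rest on few molecules. Ifit3 rose at day 5 by 6.09 ± 0.77 (SE, adjusted p = 0.00493) with 6 sums, and in the pool day 5 was at least 17.2-fold higher than day 1. Rsad2, the antiviral enzyme viperin, stood at 15.1, 49.5 and 78.2 and 44.7, 168 and 521 CPM and rose at day 5 (3.10 (adjusted p = 0.00975)). Gbp2, a guanylate-binding protein, stood at 10.8, 58.8 and 264 and 5.59, 46.1 and 44.3 CPM and rose at day 5 (3.91 (adjusted p = 0.027)). For Gbp2 the day 5 level of the pool did not exceed that of day 3, and for Rsad2 each later day was higher in both.

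Not all of the list moved. Cxcl10, an interferon-induced chemokine, stood at 79.7, 61.5 and 48.9 and 22.4, 125 and 149.6 CPM, in opposite order in the experiments, and Cxcl9 had no UMI in any sum. Irf7, the factor that amplifies the response, stood at 34.5, 209 and 499 and 224, 226 and 332 CPM. The 5-sum fit called it at day 5 (3.40 (adjusted p = 1.2e-13)) and the 6-sum fit did not (1.95 (adjusted p = 0.13)). With members chosen by C1q per 10000 UMIs, Gbp2 and Ifit3 passed at day 5 (adjusted p = 0.0229 and 0.0293), and Isg15 (adjusted p = 0.0521) and Rsad2 (0.181) did not.

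Genes of MHC class II, which present peptides to helper T cells, were called higher after day 1 by the 5-sum fit and not by the 6-sum fit. Of 8 genes tested, the 5-sum fit called 7 higher and none lower at day 3 and again at day 5, with median log2 changes of 3.53 and 4.14. The 6-sum fit called none of them at either day, with medians of 1.36 and 2.12. With members chosen by C1q per 10000 UMIs, H2-Aa and H2-Eb1 were called higher at day 3 (25% of the list, against 0.25% of all genes). At day 5 Ctss, H2-Aa, H2-Ab1 and H2-Eb1 were (50%, against 0.6%). H2-Aa (chr17:34282744-34287823, minus strand) stood at 45.2, 1209 and 2552 CPM in the CD45+ members and at 319, 437 and 776 CPM in the pool, and Cd74, the invariant chain, at 302, 4409 and 8742 and 1896, 1459 and 2277 CPM. The day 1 sums differed between the experiments, and Cd74 in the pool was lower at day 3 than at day 1. H2-Aa changed at day 5 by 5.52 ± 0.35 (SE, adjusted p = 1.8e-51) with 5 sums and 3.06 ± 0.83 (SE, adjusted p = 0.105) with 6. Neutrophils, which should lack these genes, held 107, 211 and 191 CPM of H2-Aa, so the day 1 members of the CD45+ library lay below that background and the later ones above it.

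Several genes of macrophage maturation were higher at day 5, within the limit on C1q that the rule sets. Summed, the list came to 8384, 19609 and 26432 CPM at days 1, 3 and 5 in the CD45+ members. In the pool it came to 22530, 17632 and 24015 CPM, with day 3 below day 1 and day 5 little above it. Of 27 genes tested, the 5-sum fit called 14 higher and 2 lower at day 3 (median 1.00), and 17 higher and 2 lower at day 5 (median 1.84). Both fits called Gpnmb at day 3 and Fabp5, Gpnmb, Ms4a7 and Pltp at day 5. Gpnmb, a lysosomal glycoprotein of lipid-laden macrophages (chr6:49036546-49070929, plus strand), stood at 6.46, 58.8 and 489 CPM in the CD45+ libraries and 0, 63.1 and 233 CPM in the pool. Each later day was higher in both. Gpnmb rose at day 3 by 3.68 ± 0.67 (SE, adjusted p = 0.032) and at day 5 by 6.14 ± 0.60 (SE, adjusted p = 0.00318) with 6 sums, the latter in 12 of 13 alternatives, with adjusted p from 1.7e-21 to 0.0658. Lymphocytes of day 5 held 119 CPM and the other phagocytes 666 CPM.

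Ms4a7, a membrane protein of macrophages, stood at 4.31, 169.8 and 518 and 67.1, 225 and 310.2 CPM and rose at day 5 (3.96 ± 0.68 (SE, adjusted p = 0.0227) with 6 sums). Lymphocytes of day 5 held 540.0 CPM of it, no less than the CD45+ members. Of these 43 lymphocyte barcodes 4 held at least 30 C1q UMIs, and doublets were in effect not removed. Macrophage markers outside the rule came to 9766 CPM in them and 3586 CPM in neutrophils of that library. How much of the Ms4a7 level was free RNA was not tested. Pltp, a lipid transfer protein, stood at 0, 14.7 and 19.6 and 5.59, 64.6 and 183 CPM and rose at day 5 (5.23 (adjusted p = 0.0163) with 6 sums). Its day 5 level in the CD45+ members was 2 UMIs and lay below the 67.5 CPM of lymphocytes, and in the pool its 33 UMIs of day 5 lay in 2 of 10 members. Apoe, the lipid carrier, stood at 605, 4669.5 and 9036 CPM in the CD45+ members and at 3775, 3102 and 5241 CPM in the pool. Its day 5 level in the CD45+ members was close to the 8557 CPM of the same lymphocytes of day 5. At day 5 the 5-sum fit called Apoe and the 6-sum fit did not (adjusted p = 0.205). With members chosen by C1q per 10000 UMIs Apoe was called higher at day 5. Fabp5, a fatty acid binding protein, stood at 116, 249 and 870.3 and 380.2, 404 and 1075 CPM, was highest at day 5 in both, and rose at day 5 (2.11 (adjusted p = 0.0124) with 6 sums). With members chosen by C1q per 10000 UMIs its change was 0.62 (adjusted p = 0.398). Cd63, a lysosomal tetraspanin, stood at 118, 102 and 909 and 324, 58.4 and 294 CPM, and Trem2, a lipid receptor, at 19.4, 159 and 205 and 179, 212 and 294 CPM; the 5-sum fit alone called both at day 5. Spp1, the matrix protein osteopontin, stood at 2426, 3528 and 1271 and 7829, 2929.7 and 1252 CPM, and was called lower at day 5 by the 5-sum fit alone (-1.09 (adjusted p = 4.0e-04)).

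**Figure D4:**
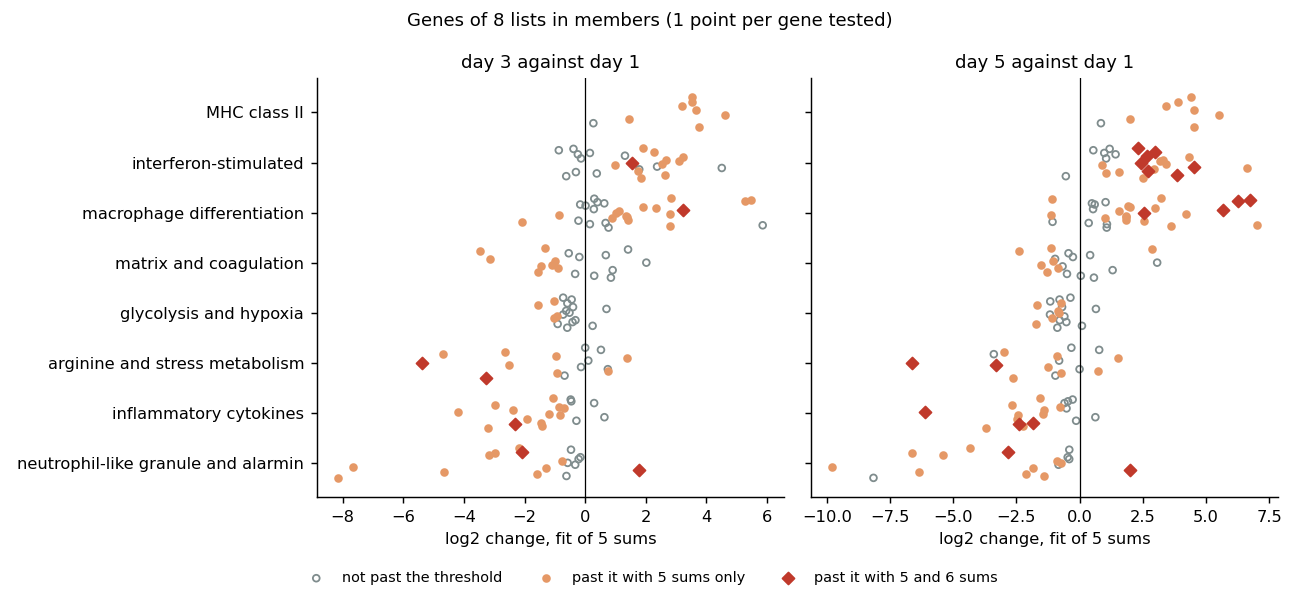
Log2 change of each tested gene in 8 gene lists (rows) at day 3 and day 5 against day 1 (panels; x axis, log2 change in the fit of 5 sums). Open points did not pass the threshold, orange points passed with 5 sums only and red diamonds passed with 5 and with 6 sums; MHC class II genes lie to the right without a diamond and cytokine genes to the left.

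The classical monocyte list had more genes called lower than higher, and Ms4a4c went the other way. Of its 15 genes, 3 of them in the rule, the 5-sum fit called 2 higher and 6 lower at day 3 (median -0.54 against -0.02 over all genes) and again 2 and 6 at day 5 (median -0.31 against -0.07). Lower at day 3 were Cd14, F13a1, Fn1, Gsr, Hp and Vcan, none of them called by the 6-sum fit. Higher were Ms4a4c and Plac8, the latter a gene of the rule. Ms4a4c, a membrane protein (chr19:11404770-11427246, plus strand), stood at 202, 799.7 and 1438 CPM in the CD45+ libraries and 207, 704 and 842 CPM in the pool. Each later day was higher in both, and Ms4a4c rose at day 3 (1.84 ± 0.29 (SE, adjusted p = 0.022) with 6 sums) and day 5 (2.38 ± 0.30 (SE, adjusted p = 0.00493)), the latter in 12 of 13 alternatives, with adjusted p from 4.5e-20 to 0.196. Cx3cr1, the fractalkine receptor of patrolling monocytes and macrophages, stood at 0, 46.8 and 29.3 CPM, with no UMI at day 1, and at 16.8, 128 and 66.5 CPM in the pool. It rose at day 3 (3.78 (adjusted p = 0.0304) with 6 sums) and was highest at day 3 in both experiments. Mpeg1, a pore-forming protein of phagosomes named after its values were seen, stood at 73.2, 313 and 459.6 and 185, 551 and 493 CPM and rose at day 3 (1.79 (adjusted p = 0.0304)) and day 5 (1.96 (adjusted p = 0.0217)). Clec4a3, Lst1 and Lair1, named likewise, rose at day 3 (6-sum changes 2.05 (adjusted p = 0.03), 2.09 (adjusted p = 0.03) and 2.14 (adjusted p = 0.0498)). Lair1 is a collagen receptor that inhibits leukocytes. Slamf7, an adhesion receptor also named after its values were seen, stood at 4.31, 44.1 and 127 and 0, 49.2 and 99.7 CPM and rose at both days (3.73 (adjusted p = 0.0498) and 4.97 (adjusted p = 0.00976)).

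Of 14 adhesion and migration genes, the 5-sum fit called 3 higher and 1 lower at day 3 (21.4 and 7.14%, against 4.77% each way over all genes) and 3 higher and 2 lower at day 5 (21.4 and 14.3%, against 4.21 and 4.58%). Both fits called Cx3cr1 higher and Cd9 lower at day 3. Cd9, a tetraspanin, stood at 560.1, 249 and 293 and 934, 157 and 288 CPM and fell at day 3 (-1.90 (adjusted p = 0.0291) with 6 sums). Lymphocytes of day 1 held 538 CPM of Cd9, close to the CD45+ members.

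Matrix, glycolysis and regulatory genes gave no call in both fits. Of 17 matrix and coagulation genes, 8 were called lower at day 3 and 6 lower and 1 higher at day 5 by the 5-sum fit, among them Fn1 (fibronectin; 608, 344 and 440.1 and 2857, 1544 and 1435 CPM) and F13a1 (a coagulation factor subunit; 808, 299.5 and 411 and 816, 395 and 443 CPM). For F13a1 the day 1 sum was the highest in both experiments, with 6-sum adjusted p of 0.059 and 0.121. With members chosen by C1q per 10000 UMIs F13a1 was called lower at both days. Of 17 glycolysis and hypoxia genes, 4 and 6 were called lower at days 3 and 5 by the 5-sum fit, with medians of -0.59 and -0.80. Ldha, lactate dehydrogenase, stood at 1321, 1068 and 861 and 1459, 658 and 582 CPM, lower at each later day in both. Of 15 myeloid transcription factors tested none was called at either day in either fit, with medians of -0.04 and 0.11. Of 9 proliferation genes, 4 and 2 were called lower with 5 sums. Of these Rrm2, a subunit of ribonucleotide reductase, had 45, 0 and 0 UMIs in the CD45+ libraries and none in the pool. Of 16 immediate early and heat shock genes, which tissue digestion can induce, 2 were called lower at day 3, and 3 lower and 1 higher at day 5, all with 5 sums only.

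Days 5 and 3 differed in few genes. The 5-sum fit called 35 higher and 22 lower, the 6-sum fit none (168 genes had an unadjusted p under 0.05), and DESeq2 on 5 sums called 6. Gpnmb (2.44 (adjusted p = 9.6e-14) with 5 sums, 2.46 (adjusted p = 0.0987) with 6), Ifit3 (2.15 (adjusted p = 2.6e-05) and 2.18 (adjusted p = 0.269)) and Cd63 (2.75 (adjusted p = 1.1e-21) and 2.81 (adjusted p = 0.269)) had the highest changes among the genes the naming rule takes. Each was higher at day 5 than at day 3 in both experiments. On the lower side were S100a9 (-3.63 (adjusted p = 6.0e-13) and -3.76 (adjusted p = 0.998)), Cxcl3 (-1.91 (adjusted p = 6.7e-13) and -1.76 (adjusted p = 0.998)) and Areg, the growth factor amphiregulin (-3.01 (adjusted p = 5.3e-12) and -3.02 (adjusted p = 0.834)). Areg stood at 439, 235 and 97.8 CPM in the CD45+ libraries and at 257, 341 and 0 CPM in the pool, where day 5 had no UMI.

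Single members differed widely from each other within a day. Arg1 at day 1 was found in 33 of 42 members, with a median of 1.80 and a highest value of 299.5 UMIs per 10000, so its level was uneven among them. Members with an Arg1 UMI numbered 33 of 42, 32 of 75 and 5 of 15 at days 1, 3 and 5, or 50.0, 22.7 and 20% after thinning to 2000 UMIs. Of the 19, 7 and 43 lymphocytes, 47.4, 57.1 and 20.9% had an Arg1 UMI at the lower depths given above, and 33.3, 14.3 and 13.95% after the same thinning, lower than in the members at each day but with few lymphocytes behind each share. Ms4a4c was found in 28 of 42, 75 of 75 and 15 of 15 members and, thinned, in 40.5, 81.3 and 100.0%, against 0, 42.9 and 16.3% of thinned lymphocytes. Isg15 was found in 23 of 42, 54 of 75 and 13 of 15 members and, thinned, in 21.4, 42.7 and 46.7%, against 16.7, 14.3 and 13.95% of thinned lymphocytes. Its highest member held 95.6 UMIs per 10000 at day 3 and 58.4 at day 5, against a median of 0.686, 2.34 and 2.12. Rsad2 was found in 6 of 42, 9 of 75 and 4 of 15 members and Gpnmb in 2 of 42, 13 of 75 and 5 of 15, a minority of cells at each day.

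Against the other mononuclear phagocytes of the same libraries the members differed in genes beyond the rule. The rule chose the members by this contrast, so these values are a description over days 1 and 3, the days with at least 20 members, without a test. Mgst1, a glutathione transferase, was higher by a mean of 1.66 on the log2 scale, and Lrg1, a secreted glycoprotein, by 1.42. Hopx, Mmp8, Klra2 and S100a8 were among the 15 genes highest in the members, with differences of 1.26, 1.20, 1.12 and 1.12. With barcodes thinned to 2000 UMIs, where day 1 kept 5 members, the differences were 0.98 for Mgst1, 1.37 for Lrg1, 1.26 for Klra2, 0.48 for Mmp8, 0.32 for S100a8 and 0.06 for Hopx. Lowest in the members were the collagenase Mmp13 (-4.96), the mannose receptor Mrc1 (-4.57), the haemoglobin scavenger receptor Cd163 (-3.81), Pltp (-3.57), Fcrls (-3.49) and Cd81 (-3.43). Ifit1 was lower as well (-2.89), at 4.31 CPM in members against 141 CPM in the others at day 1. Thinned, these differences were -2.08 for Mrc1, -1.53 for Cd81, -1.26 for Cd163, -0.67 for Fcrls, -0.59 for Pltp, -0.32 for Mmp13 and -0.08 for Ifit1, each nearer 0. Mrc1, Cd163, Pltp and Fcrls are genes of tissue macrophages, the cells that the limit on C1q keeps out.

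The surface antibodies of the CD11b+ pool gave a readout that the rule did not use. Ly6C antibody UMIs per cell had a median of 193, 250 and 300 in the 9, 35 and 10 members of days 1, 3 and 5, against 156, 76 and 72 in the 139, 484 and 614 other phagocytes. At day 1 the quartiles overlapped (142 to 261 in members, 93 to 271.5 in the others), and at days 3 and 5 they did not (180 to 354.5 against 58.8 to 120.2 at day 3, 220.2 to 322 against 56.2 to 98.8 at day 5). One day 3 member held 21855 Ly6C antibody UMIs. Ly6G, the neutrophil antigen, had medians of 99, 105 and 97.5 in members and 340, 303 and 311 in neutrophils, with no overlap of quartiles. CD64, an Fc receptor of macrophages, had 41, 25 and 32.5 in members against 35, 44 and 47 in the others. The MHC class II antibody had 68, 65 and 77.5 against 75, 96 and 92. The CCR2 antibody did not separate the cells, with medians of 47, 41 and 46 in members, 51, 45.5 and 44 in other phagocytes and 52, 50 and 52 in neutrophils. With 1 set of cells a day no antibody difference was tested, and counts were not corrected for depth. The order of the days in Ly6C of members changed under other settings, given at the end.

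**Figure D5:**
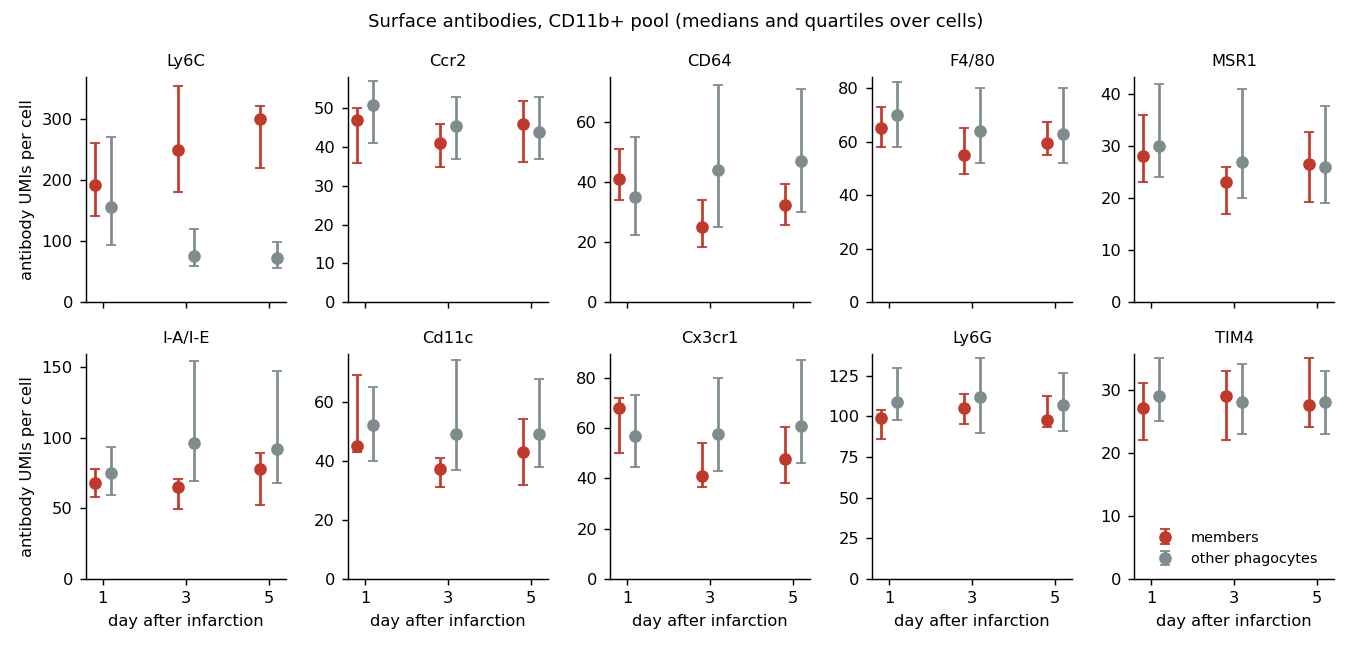
Antibody UMIs per cell (y axis, median with quartiles) for 10 surface antibodies in the CD11b+ pool at days 1, 3 and 5 (x axis), with members in red and other mononuclear phagocytes in grey. Ly6C separates members from the others at days 3 and 5, with medians of 250 against 76 and 300 against 72.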

How the data were processed

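The deposited single-cell files hold whole-number UMI counts per gene and barcode, made by the authors with Cell Ranger (version 3.0.2 where the files state it) on mm10, per the labels and file headers. The CD45+ files list 27998 genes and the CD11b+ pool 31053; 27514 were joined by gene ID. The members and the gene lists were chosen with earlier results of these data known. Scripts applied the rule, called pool hashtags with a 2-part Gaussian mixture (scikit-learn 1.9.0), and summed the counts per day and experiment. Kept barcodes of the CD45+ libraries had median depths of 3595 to 9463.5 UMIs by library, and the precision of a sum is given by exact Poisson intervals. Sums were tested with edgeR 4.0.16 in R 4.3.3 (filterByExpr, TMM, glmQLFit, glmQLFTest, day and experiment as terms), DESeq2 1.42.0 being an alternative. The method was tested on simulated data. As planned, sums under 10 cells were left out; the 6-sum fit and the C1q limit per 10000 UMIs were added after seeing the data. Named genes are those of the lists, plus per comparison the 8 highest and 8 lowest changes among genes called, moving the same way in both experiments and averaging 50 CPM; others are said to be named after their values were seen. CPM are UMIs per 1000000 of a sum's joined genes. Coordinates are GENCODE M21 (GRCm38). The blood and heart pool was not used here, since its hashtags were not mapped to groups. Alternatives: another normalization, filter, tool, limit, thinning, and leaving out sums.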

Additional observations from a re-analysis of the deposited data

How the results depend on the processing

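Of the shares of members among phagocytes, thinning to 2000 UMIs gave 8.33% at day 1, 10.7% at day 3, 5.94% at day 5 and 0.802% at day 7, and the C1q limit per 10000 UMIs gave 27.4% at day 3, 9.39% at day 5 and 2.58% at day 7. Counts of called genes (556, 512 and 57 for day 3 against 1, day 5 against 1 and day 5 against 3) became 81, 94 and 6 with DESeq2, 11, 11 and 0 without the experiment term, 33, 38 and 0 with 6 sums, and 54, 76 and 5 with the C1q limit per 10000. Thinning left 10 calls between days 5 and 3 and no day 1 sum of 10 cells. Leaving out each of the 6 sums in turn gave 26 calls (without CD45+ day 3) to 556, 65 to 512 and 4 (without pool day 3) to 58. The 556 and 512 are those without pool day 1, which is the 5-sum fit again. Of the 5 sums, only leaving out that of day 1 kept a residual degree of freedom, with 60 calls between days 5 and 3. The Ly6c2 limit of 3 UMIs and a hashtag ratio of 5 left none, so neither gave a test. Log2 changes that reversed were those of H2-DMb1 (-0.36 to 5.69 over leave-outs) and H2-Eb1 (-0.025 to 3.79) at day 3, lowest with 6 sums less the CD45+ day 1 sum. Between days 5 and 3 they were Hspa1a (-2.41 to 0.040, the latter without pool day 3), Lcn2 (-4.50 to 0.57, the latter without CD45+ day 5) and S100a9 (0.89 with the C1q limit per 10000). Antibody medians for Ly6C in members became 372, 371.5 and 290 at days 1, 3 and 5 when thinned, and 326, 257.5 and 310 with the C1q limit per 10000. The rise by day under the rule itself, 193, 250 and 300, held under neither setting. Over 110 named gene comparisons, 369 values under alternatives lost the call. The cause was not tested. No paired analysis was possible because the labels give no replicate numbers; days were compared within experiments by the experiment term, whose removal is given above. Depth was lowest in the CD45+ day 5 sum, 102261 UMIs from 15 cells, where no UMI does not show that a gene is absent.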
